A study of Bos taurus with 48 samples.

Results

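Homeobox genes encode transcription factors that bind DNA through a shared domain, the homeodomain. The HOX genes lie in 4 clusters, HOXA to HOXD, and their order along a cluster follows the order in which they are switched on along the body axis. In the female tract the late HOXA genes pattern the oviduct, uterus and cervix in the embryo, and they remain active in the adult uterus, where HOXA10 and HOXA11 are needed for implantation. MSX1, a homeobox gene of the MSX family, also acts in uterine receptivity, while MEIS and PBX proteins bind DNA together with HOX proteins.

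A gene was taken as a member when its array symbol belonged to a HOX cluster or to the MEIS, PBX, MSX, DLX, EMX, sine oculis, LHX, IRX, NKX, PITX, TGIF, PRRX, MEOX or ZEB families. This gave 86 genes of 20447 on the array, measured by 92 of 21475 probes. Of the 86 genes, 53 had a probe that passed the filter on low signal and 33 had none. A probe passed when it was well above background, with 80 units or more of raw sample signal, in 22 or more of 44 samples. The filter kept 63.0% of the member probes and 70.2% of all probes. All counts and medians of members given here are over the 53 genes that passed, and a gene that passed only through the group in which it is high would have had to differ between groups. The symbols ZEB1 and ZEB2 stood on no probe of the array.

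Endometrium, the inner lining of the uterus, was taken on day 17 of the reproductive cycle from 22 lactating Holstein-Friesian cows with synchronised cycles. Of these, 12 were pregnant after the transfer of a grade 1 embryo on day 7 and 10 were cyclic, that is, not pregnant. Each cow gave a caruncular sample, from the raised areas where the placenta later attaches, and an intercaruncular sample, from the gland-bearing tissue between them. The pregnant cows carried 7 large embryos (over 20 cm and over 75 mg) and 5 small embryos (under 20 cm and under 40 mg), and 6 of them were labelled fertile and 6 sub-fertile, with no criterion for that label in the sources used here. The 2 labels crossed each other, with 3 large and 3 small embryos in fertile cows and 4 large and 2 small embryos in sub-fertile cows. No age or parity was used.

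On each 2-colour array the Cy5 dye marked the RNA of 1 sample and the Cy3 dye a pool of the 44 samples, and no sample was measured with the dyes exchanged. The value of a gene is the log2 ratio of the sample to this pool, so that 0 is the level of the pool and negative values lie below it. There were 48 arrays on 12 slides, since the caruncular samples of 4 cows were measured again, and the repeats differed with a standard deviation over probes of 0.106 to 0.150 on the log2 scale. The number of arrays limits the precision of each value. The median share of spots well above background was 71.7% in caruncular cyclic, 71.5% in caruncular pregnant, 70.0% in intercaruncular cyclic and 72.6% in intercaruncular pregnant arrays.

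Slides and scan dates followed the tissues closely and the states in part. Both states lay together on 3 slides and both tissues of a cow on 2 slides, so that outside these slides the tissue and the slide cannot be told apart. Cows are named by state and number as in the labels. A pair of cyclic cows stood apart. The first arrays of cow Non-Pregnant_9778 held the most outlier spots, 3267 in caruncular and 2186 in intercaruncular tissue. Arrays of the other cyclic cows held at most 763 and those of pregnant cows at most 156. Cow Non-Pregnant_9786 had the lowest value among the cyclic cows for 7 of the 8 HOXB genes in each tissue. Results were therefore also obtained without each of these cows, an alternative chosen after seeing the data.

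The labelled tissue was checked against markers of the cell types of the endometrium. All 8 epithelial and all 8 stromal markers passed the filter, as did 7 of 8 smooth muscle, 7 of 7 endothelial and 10 of 12 leukocyte markers. Of the gland markers, FOXA2, MEP1B and SERPINA14 passed, while SPINK1 was above background on 0 of 48 arrays. Of 8 conceptus markers, IFNT2, PAG2, PAG11, CSH2 and CDX2 were above background on 0 arrays, TKDP1 on 2, ELF5 on 12 and PAG1 on 47 of 48. PAG1 was not called for pregnancy, at 0.16 in caruncular and −0.33 in intercaruncular tissue.

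Detection divided the members into 46 genes above background on every array, 24 on some arrays and 16 on none. The HOXA cluster was the most complete, with 10 of 11 genes passing the filter, followed by HOXB with 8 of 10, HOXD with 7 of 10 and HOXC with 5 of 9. Among the cofactors of HOX proteins and TGIF2, 7 of 8 passed. The LHX family passed with 2 of 8 genes and the IRX family with 1 of 5, IRX3. The MSX, DLX, EMX and NKX genes passed with 6 of 13, the sine oculis genes with 3 of 6, and the PITX, PRRX and MEOX genes with 4 of 6. With 46 genes tied at every array and 16 at none, no gene ranked as best or least detected. A member on some arrays was also unevenly detected. HOXC9 was above background on 8 of 13 caruncular cyclic and 3 of 13 caruncular pregnant arrays.

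The probe sequence of HOXA2 is shown, since this gene fell in caruncular tissue of pregnant cows and stood on the array under a locus number.
HOXA2: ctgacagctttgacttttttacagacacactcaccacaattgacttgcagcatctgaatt
The probe has 60 bases, of which 40% are G or C.

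Pregnant and cyclic cows were first compared in caruncular endometrium, to ask which members differ in the tissue of future attachment. Of the 53 genes, 17 were called, meaning that they changed 1.5-fold or more and that limma gave an adjusted p under 0.05, and all 17 were lower in pregnant cows. Among all 15071 probes tested, 10.1% were called and 4.25% were called as lower. The 17 genes were the whole tested HOXB cluster (HOXB2 to HOXB9), HOXA2, HOXC6, HOXC9, MSX1, DLX5, DLX6, IRX3, LHX6 and MEOX2. No member was called as higher, against 5.87% of all probes. The median change over the 53 genes was −0.26 on the log2 scale, against −0.04 over all probes, and 30 genes had an unadjusted p under 0.05, against 39.1% of all probes. In a bulk sample, fewer cells of a type and less RNA per cell cannot be told apart, which holds for every difference given here.

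HOXB6 had the largest change. Its log2 ratios ran from −1.34 through a median of −0.16 to 0.83 in the 10 cyclic cows, and from −2.77 through −1.51 to 0.03 in the 12 pregnant cows. In words, 8 of the 12 pregnant cows lay below every cyclic cow and 11 below the cyclic mean, while a few pregnant cows overlapped the cyclic range. The fall was 1.35 on the log2 scale (SE 0.31, adjusted p = 0.0030).

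HOXB2, at one end of the tested cluster in the reference, ranged from −1.50 through a median of −0.36 to 0.92 in cyclic cows and from −2.84 through −1.79 to −0.81 in pregnant cows. All 12 pregnant cows lay below the cyclic mean and 7 below every cyclic cow. The fall was 1.32 (SE 0.28, adjusted p = 0.0016). The other 6 tested HOXB genes fell by 0.84 (HOXB4) to 0.98 (HOXB8), and their ranges in the 2 states overlapped. HOXB8 had 6 pregnant cows below every cyclic cow, HOXB5 had 9, HOXB4 had 4, HOXB9 had 3, HOXB3 had 2 and HOXB7 had 0.

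HOXB7 was the weakest of these calls. Its values ran from −2.09 through 0.45 to 0.93 in cyclic cows, the lowest being cow Non-Pregnant_9786, and from −1.84 through −0.72 to 0.54 in pregnant cows. The groups overlapped over most of their range, with 10 pregnant cows below the cyclic mean. The fall was 0.87 (SE 0.32), and its adjusted p was 0.0469, and from 0.000544 to 0.788 over the alternatives. The call was lost without cow Non-Pregnant_9778, at a fall of 0.88, and 16 genes were then called. Without cow Non-Pregnant_9786, 17 genes were called, HOXD12 joining and HOXC9 leaving.

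Averaged over the 8 tested HOXB genes, caruncular values ran from −1.32 through a median of −0.07 to 0.72 in cyclic cows and from −2.08 through −1.11 to 0.10 in pregnant cows. The same pregnant cows tended to be lowest and highest across the cluster, cow Pregnant_3805 being lowest for 7 genes and cow Pregnant_3807 highest for 6. HOXB members lie side by side in the cattle reference assembly (ARS-UCD2.0), where 9 HOXB genes form a run with no other protein-coding gene between them. In the other clusters fewer genes were called, with 1 of 10 HOXA, 2 of 5 HOXC and 0 of 7 HOXD genes called. Their median changes were −0.17, −0.14 and −0.06, against −0.89 for HOXB.

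**Figure D1:**
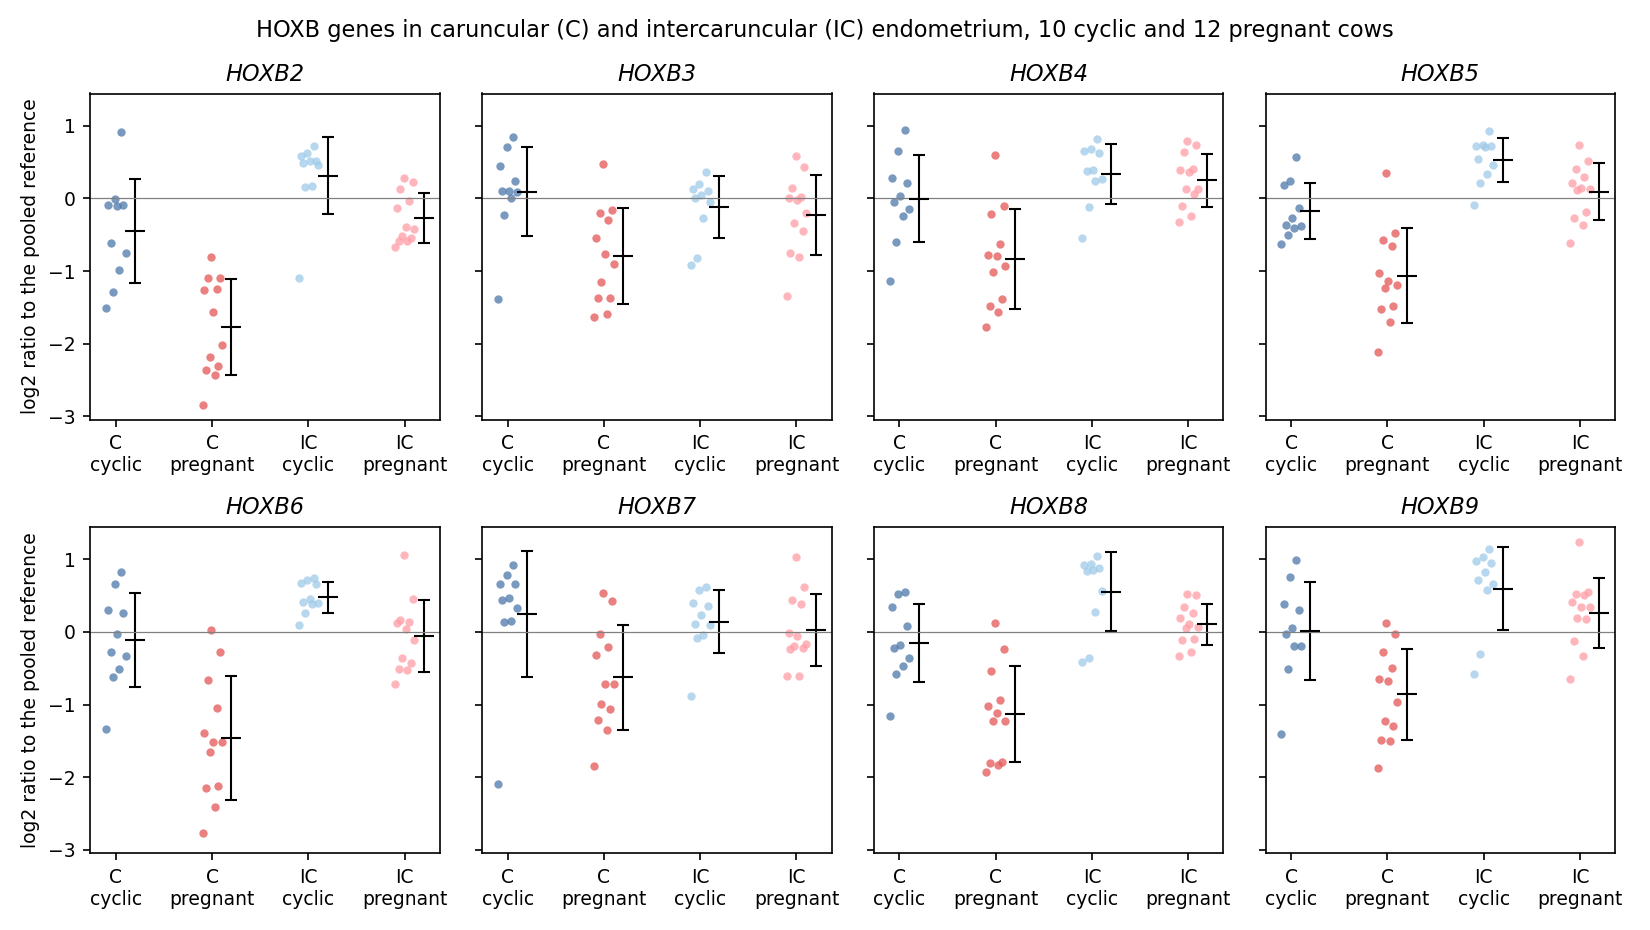
Log2 ratio to the pooled reference of the 8 tested HOXB genes, 1 point per cow, in caruncular (C) and intercaruncular (IC) endometrium of 10 cyclic and 12 pregnant cows, with bars for the mean and SD of each group. The group mean of caruncular samples of pregnant cows is the lowest in every panel, with means from −1.77 for HOXB2 to −0.63 for HOXB7.

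Outside the HOX clusters, MSX1, whose product represses transcription and which marks uterine epithelium before implantation, ran from −1.13 through −0.44 to 1.19 in cyclic and from −2.35 through −1.69 to −0.32 in pregnant caruncular samples. Of the pregnant cows, 9 lay below every cyclic cow and all 12 below the cyclic mean. The fall was 1.27 (SE 0.28, adjusted p = 0.0020). MSX2, the related gene, changed by −0.05 and was not called.

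IRX3, a patterning factor of the Iroquois family, ran from −0.90 through −0.00 to 0.47 in cyclic cows and from −2.36 through −1.32 to −0.26 in pregnant cows. Here 8 pregnant cows lay below every cyclic cow and 12 below the cyclic mean. The fall was 1.22 (SE 0.25, adjusted p = 0.000954).

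The DLX5 and DLX6 genes, neighbours in the reference, both fell. DLX6 ran from −1.25 through −0.75 to 0.47 in cyclic and from −2.97 through −1.66 to −0.41 in pregnant cows, with 8 of 12 below every cyclic cow. Its fall was 1.07 (adjusted p = 0.0111), and that of DLX5 was 0.67 (adjusted p = 0.0296, 4 of 12 below every cyclic cow). Both genes kept some overlap between the states.

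HOXC6 was the member with the most pregnant cows below every cyclic cow, 10 of 12. It ran from −0.08 through 0.29 to 1.13 in cyclic and from −1.17 through −0.80 to 1.15 in pregnant cows, where cow Pregnant_3807 alone was as high as the highest cyclic cow. The fall was 0.97 (SE 0.22, adjusted p = 0.00235). HOXC9 fell by 0.68, on a probe above background on only 3 of the 13 caruncular pregnant arrays, so the size of its fall is uncertain. The call was lost without cow Non-Pregnant_9786, at a fall of 0.60, with adjusted p = 0.0320 as reported and from 0.0169 to 0.742 over its alternatives.

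HOXA2 ran from −0.98 through −0.41 to 0.76 in cyclic cows and from −1.56 through −1.30 to −0.17 in pregnant cows, a fall of 0.89 with 8 of 12 below every cyclic cow. MEOX2, which restrains growth of vascular smooth muscle and endothelium, ran from −0.19 through 0.37 to 1.14 and from −1.06 through −0.55 to 0.49, a fall of 0.84 with 8 of 12 below every cyclic cow. LHX6, a LIM-homeodomain factor, ran from −0.10 through 0.34 to 0.93 and from −1.11 through −0.44 to 0.41, a fall of 0.72 with 8 of 12 below every cyclic cow. In each of these 3 genes, 11 pregnant cows lay below the cyclic mean and the rest overlapped.

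The late HOXA genes, best known in the uterus, were not among the calls. HOXA10 ran from −0.64 through 0.41 to 1.09 in cyclic and from −0.06 through 0.79 to 1.91 in pregnant cows, a difference of 0.46 with adjusted p = 0.125. HOXA9 differed by 0.16, HOXA11 by 0.28 and HOXA13 by −0.20. The cofactors MEIS1 (−0.21) and MEIS2 (0.12) and EMX2 (−0.24) were not called either. HOXD12, named after its values were seen, differed by −1.08 with a wide spread and adjusted p = 0.0598, its lowest cyclic value, −3.85, being that of cow Non-Pregnant_9786. Without this cow it fell by 1.47 and was called (adjusted p = 0.000709). A further 4 genes had an adjusted p under 0.05 with a change under 1.5-fold, namely LHX3, PBX3, PRRX1 and HOXD8, named after their values were seen. For PRRX1 this held on its brightest probe alone, since another of its probes changed by 0.02. The description of the LHX3 probe also names another gene, QSCN6L1, so its value may not be that of LHX3.

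Within batches the means of the 17 genes were lower in pregnant cows, by amounts that varied. On the slide with 3 pregnant cows and 1 cyclic cow, the median difference was −0.39. DLX5 (−0.04), HOXB5 (−0.06) and HOXB8 (−0.07) were near 0 there, and for DLX5 and DLX6 (−0.18) 2 of the 3 pregnant cows lay above the cyclic cow. On the slide with 2 pregnant arrays and 1 cyclic array the median was −1.30. Within the scan date that held 11 pregnant and 9 cyclic arrays the median was −1.07, and within that with 2 pregnant and 4 cyclic arrays it was −0.75, HOXB7 standing at −0.05. With the slide as a fixed block, a fit that rests on these 2 slides with 1 cyclic array each, 0 genes were called by limma and 4 had an unadjusted p under 0.05. The 17 changes then ran from −1.30 to −0.36 with a median of −0.69, and their adjusted p from 0.270 to 0.788. With the slide as a random block 18 genes were called, and 18 with the scan date as a fixed block.

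**Figure D2:**
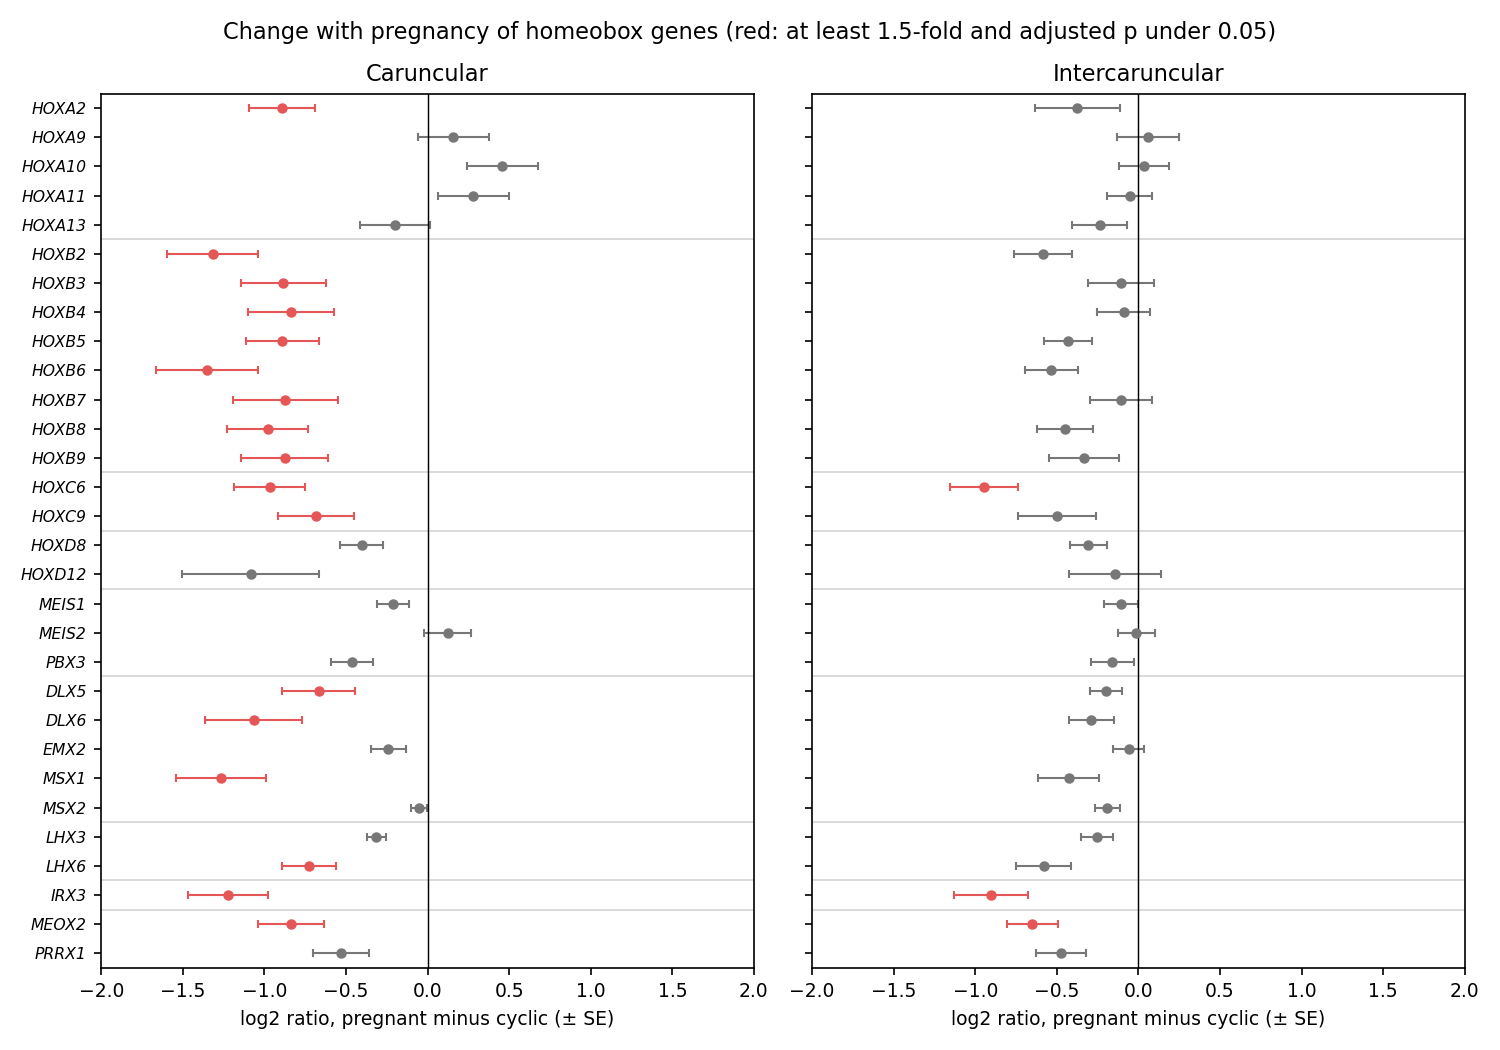
Log2 change of 30 tested genes described here, pregnant minus cyclic, with its SE, in caruncular and intercaruncular endometrium (12 pregnant and 10 cyclic cows). Red points are called, 17 in caruncular and 3 in intercaruncular tissue, and grey lines separate the classes of genes.

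In intercaruncular endometrium the same comparison called 4 of the 53 members, against 7.35% of all probes. The calls were 3 genes that were lower in pregnant cows (3.3% of all probes), HOXC6, IRX3 and MEOX2, and 1 that was higher (4.05% of all probes). The median change over the members was −0.19, against −0.01 over all probes, and 24 members had an unadjusted p under 0.05, against 34.0% of all probes. A count of 4 in 53 is close to the background share.

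HOXC6 ran from 0.36 through 0.60 to 1.36 in cyclic and from −1.37 through −0.29 to 0.85 in pregnant intercaruncular samples. Here 9 of 12 pregnant cows lay below every cyclic cow. The fall was 0.95 (SE 0.21, adjusted p = 0.0028).

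IRX3 ran from −0.21 through 0.73 to 2.04 in cyclic and from −1.36 through −0.19 to 0.58 in pregnant cows, with 6 of 12 below every cyclic cow and the highest value in cow Non-Pregnant_9778. The fall was 0.90 (SE 0.23, adjusted p = 0.0072). MEOX2 ran from −0.02 through 0.60 to 1.02 and from −0.54 through −0.19 to 0.49, a fall of 0.65 (SE 0.15, adjusted p = 0.0050) with 7 of 12 below every cyclic cow. For both genes all 12 pregnant cows lay below the cyclic mean.

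Within the intercaruncular scan date that held 11 pregnant and 9 cyclic arrays, the 4 genes kept their direction, and on the slide with 3 pregnant cows and 1 cyclic cow 3 of them did. A fit with the slide as a fixed block rests on this slide alone, since no other held both states, with 1 cyclic cow. In that fit the changes of the 4 genes ran from −0.998 to −0.116 with a median of −0.764, and 3 kept their direction. With 1 cyclic cow it cannot decide whether the 4 calls hold within slides, so they are not shown to be free of the slide. Without cow Non-Pregnant_9786, 6 members were called, the additions being HOXB2 with a fall of 0.74 and LHX6 with a fall of 0.64. Without cow Non-Pregnant_9778, 4 members were called.

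The HOXB genes were not called in intercaruncular tissue. Their changes ran from −0.58 (HOXB2) to −0.09 (HOXB4), with a median of −0.38. HOXB2 had an adjusted p of 0.0239 and missed the 1.5-fold limit by little (−1.09 through 0.49 to 0.72 in cyclic, −0.67 through −0.41 to 0.28 in pregnant cows), and HOXB5 and HOXB6 also had an adjusted p under 0.05. HOXA10 (0.04), HOXA11 (−0.05), HOXA13 (−0.24), MSX2 (−0.19), EMX2 (−0.06), MEIS1 (−0.11) and MEIS2 (−0.01) were not called.

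An interaction was fitted to ask whether pregnancy had a different effect in each tissue, on each cow's caruncular minus intercaruncular value. Of the 53 members, 2 had an adjusted p under 0.05, against 1.02% of all probes, and both were more negative in pregnant cows (0.358% of all probes), while 18 had an unadjusted p under 0.05, against 17.2% of all probes. The members' median was −0.11, against −0.02 over all probes.

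For MSX1 the within-cow difference ran from −1.11 through −0.48 to 0.33 in cyclic cows and from −1.77 through −1.38 to −0.19 in pregnant cows. Of the pregnant cows, 7 lay below every cyclic cow and 11 below the cyclic mean. The interaction was −0.84 (SE 0.20, adjusted p = 0.0454, from 0.0210 to 0.547 over its alternatives). For HOXB4 the difference ran from −0.99 through −0.42 to 0.39 and from −1.84 through −1.16 to −0.04, with 8 of 12 below every cyclic cow, an interaction of −0.74 (SE 0.18, adjusted p = 0.0457, from 0.0251 to 0.581). The other HOXB genes had interactions from −0.82 to −0.46 that did not pass, so a difference between tissues is not shown for them.

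This count rested on single cows. Without cow Non-Pregnant_9786, 8 members passed, namely HOXB3, HOXB4, HOXB6, HOXB7, HOXC10, HOXD1, HOXD12 and MSX1, and all but HOXC10 were negative. Without cow Non-Pregnant_9778, MSX1 alone passed. HOXC6, IRX3 and MEOX2, called in both tissues, did not pass the interaction.

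The tissues were then compared within cows, each cow serving as its own control. Over the 22 cows 17 of the 53 members were called, against 15.3% of all probes. Of these, 14 were lower in caruncular tissue (6.87% of all probes) and 3 higher (8.46%), and 43 members had an unadjusted p under 0.05, against 72.6% of all probes. The median was −0.18 over the members and −0.02 over all probes.

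The 3 genes higher in caruncular tissue were HOXA10, HOXA11 and HOXD10, late genes of their clusters. HOXA10 ran from −0.92 through −0.31 to 0.43 in intercaruncular and from −0.64 through 0.41 to 1.09 in caruncular samples of cyclic cows. In pregnant cows it ran from −0.74 through −0.25 to 0.46 and from −0.06 through 0.79 to 1.91. In 19 of 22 cows the caruncular sample was the higher, by 0.87 on average (SE 0.13), the largest rise among the members.

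HOXD10 was higher by 0.64 in 20 of 22 cows (adjusted p = 2.35e-07) and HOXA11 by 0.61 in 18 of 22 cows (adjusted p = 6.8e-06). HOXA11 fell below 1.5-fold without cow Non-Pregnant_9786, at 0.58. HOXA9 was higher by 0.54 in 19 of 22 cows, under the 1.5-fold limit on its brightest probe. Of its other probes, one passed at 0.59, while those at 0.50 and at 0.07 (13 of 22 cows) did not. MEIS2, a cofactor of HOX proteins, was higher by 0.54 in 20 cows and MEIS1 by 0.27 in 19 cows, both under the limit. HOXA13 (−0.05), MSX2 (0.07) and EMX2 (−0.14) differed little between the tissues.

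Lower in caruncular tissue were 6 of the 8 HOXB genes, with changes from −1.13 (HOXB2) to −0.72 (HOXB4). HOXB2 was lower in 21 of 22 cows (SE 0.12), HOXB6 by 0.99 in 20, HOXB8 by 0.96 in 20, HOXB5 by 0.93 in 20 and HOXB9 by 0.85 in 21.

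DLX6 was lower by 1.17 in 21 of 22 cows (SE 0.12) and IRX3 by 0.87 in 20. MSX1 was lower by 0.82 in 20 cows, DLX5 by 0.66 in 19 and HOXD12, named after its values were seen, by 0.77 in 19.

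Along the clusters the tissue differences are given by paralogue group, with no test of order. In HOXA the values were −0.41 for HOXA2 and −0.01 for HOXA4, and the medians 0.35 for paralogue groups 5 to 8 and 0.57 for groups 9 to 13, with HOXA13 as the exception at −0.05. In HOXB the medians were −0.72 for groups 1 to 4, −0.95 for groups 5 to 8 and −0.85 for groups 9 to 13, all genes lying below 0. HOXC had no call, with a median of −0.37, and HOXD had 1 gene called in each direction. HOXD9 stood at 0.17 on its brightest probe and was not called, while another of its probes was called, higher by 0.62 in 22 of 22 cows.

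**Figure D3:**
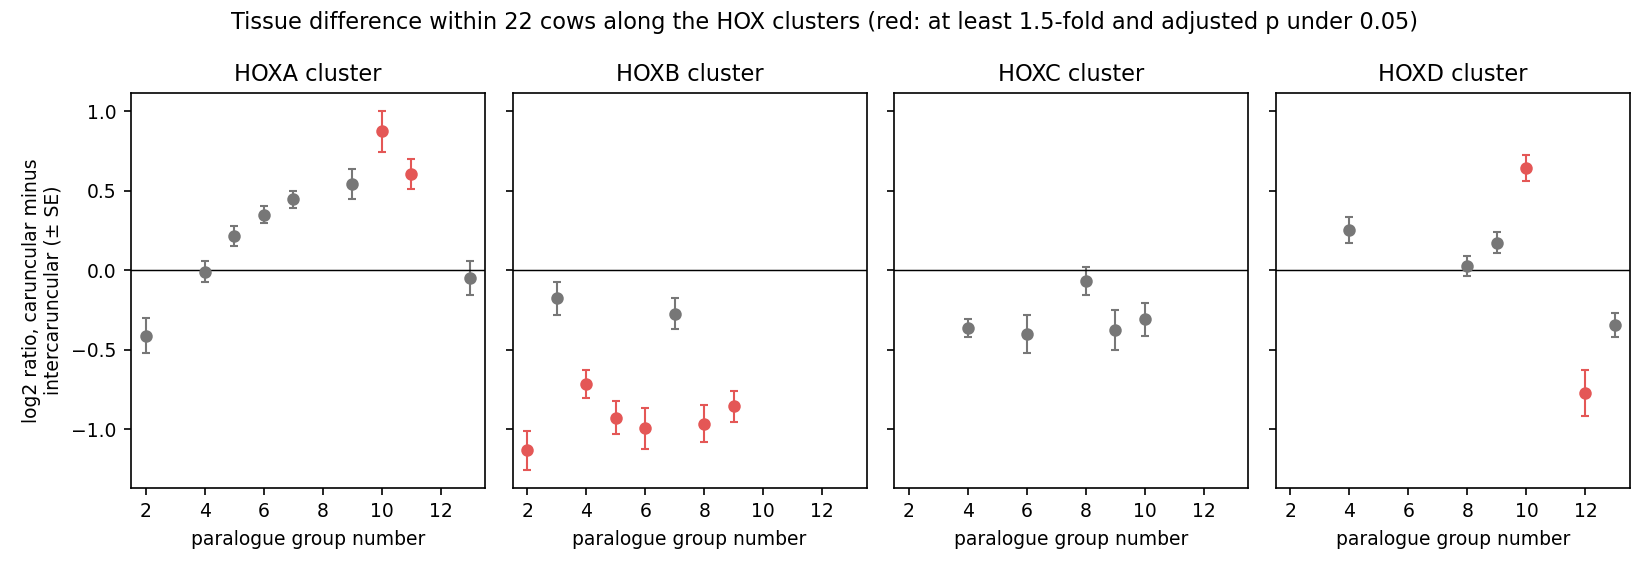
Log2 difference between caruncular and intercaruncular endometrium within 22 cows, with its SE, for the tested HOX genes of paralogue groups 2 to 13 in the order of their number. In HOXA the values climb from −0.41 for HOXA2 to 0.87 for HOXA10, in HOXB all 8 lie below 0, and red points are called. Each gene is shown on its brightest probe, and for HOXD9 another probe was called.

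By state, 10 members were called between the tissues in cyclic cows (13.7% of all probes), 8 lower (5.89%) and 2 higher (7.78%), and 22 in pregnant cows (18.1% of all probes), 17 lower (8.39%) and 5 higher (9.73%). In cyclic cows the higher genes were PITX3 (0.68) and HOXA10 (0.66), and the lower ones included DLX6 (−0.78), HOXB2 (−0.77) and IRX3 (−0.72). In pregnant cows DLX6 (−1.56), HOXB2 (−1.50) and HOXB6 (−1.40) were lower in all 12 cows and HOXD10 (0.79) was higher in all 12. Called in both states were 9 members. The 2 states share no cows, and the interaction above is the test of their difference. Without cow Non-Pregnant_9778 the cyclic count was 8, and without cow Non-Pregnant_9786 it was 12.

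Only 2 cows, Pregnant_9790 and Non-Pregnant_9786, had both tissues on 1 slide. Of the 17 members called over all cows, 15 had the same direction in both of these cows, with no test. IRX3 had the opposite direction in both cows, at 0.95 and 0.38. For IRX3 the tissue difference therefore did not hold within a slide. PITX3, called as higher in caruncular samples of cyclic cows, also had the opposite direction, at −0.18 and −0.10. HOXA2 (0.43 and 0.17) and HOXA4 (0.53 and 0.46), which were not called over all cows, stood above 0 in these cows, so the low values at the start of the HOXA cluster did not hold there either.

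Markers of cell types also differed between the tissues and the states, and their part in the results was not tested. Between the tissues, where 8.46% of all probes were higher and 6.87% lower, 6 of 8 stromal markers were higher in caruncular samples (LUM by 1.12), 4 of 6 ciliated epithelial markers were lower (DNAH9 by 1.86) and 2 of 3 tested gland markers were lower (FOXA2 by 2.11). Of 8 epithelial markers, 4 were lower and 1 higher in caruncular samples, with a median of −0.56. Smooth muscle had 2 of 7 higher, while endothelium with 7 and leukocytes with 10 tested markers had 0 called by limma over all cows.

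Between the states, where 10.1% of all probes were called in caruncular and 7.35% in intercaruncular tissue, 5 of 7 smooth muscle markers fell with pregnancy in each tissue, ACTA2 by 1.48 in caruncular and 1.38 in intercaruncular samples. Of 7 endothelial markers 3 fell in each tissue, PECAM1 by 1.29 and 1.52. In caruncular tissue 2 epithelial markers fell and 2 rose, 1 ciliated marker fell, 1 stromal marker fell and 1 rose, and 2 of 10 leukocyte markers rose. In intercaruncular tissue 3 stromal markers fell (COL3A1 by 1.32), 2 epithelial and 1 leukocyte marker rose.

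The mean of the smooth muscle markers ran from −0.35 through 0.71 to 1.10 in caruncular cyclic and from −1.44 through −0.39 to 0.51 in caruncular pregnant samples. That of the ciliated epithelial markers was −0.91 ± 0.57 (SD, n = 10) and −1.40 ± 0.57 (SD, n = 12). The epithelial mean ran from −1.15 through −0.29 to 0.14 and from −1.32 through −0.64 to 0.16. All 3 overlapped between the states.

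Embryo size was compared among the 12 pregnant cows. In intercaruncular tissue 3 of 53 members had an adjusted p under 0.05 from limma, against 3.51% of all probes, and all 3 were lower with large embryos (2.03% of all probes). An unadjusted p under 0.05 was found for 17 members, against 21.5% of all probes.

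PBX3, a cofactor of HOX proteins, ran from −0.39 through −0.33 to 0.03 in the 7 cows with large embryos and from 0.23 through 0.45 to 0.63 in the 5 with small embryos. The groups did not overlap. The fall was 0.68 (SE 0.10, limma adjusted p = 0.0132). Against the mean of the cyclic cows, PBX3 stood at −0.44 with large and at 0.24 with small embryos, so the size classes lay on either side of it.

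HOXB6 ran from −0.71 through −0.43 to 0.04 with large and from 0.12 through 0.16 to 1.05 with small embryos, again without overlap. The fall was 0.76 (SE 0.18, limma adjusted p = 0.0424, from 0.0133 to 0.111 over its alternatives). Relative to the cyclic mean it stood at −0.85 with large and −0.09 with small embryos. HOXC6 ran from −1.37 through −0.49 to −0.27 with large and from −0.31 through 0.42 to 0.85 with small embryos, with 5 of 7 large below every small. Its fall was 0.90 (SE 0.22, limma adjusted p = 0.0459, from 0.0188 to 0.128).

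PBX3 passed whichever cow was left out. The calls of HOXB6 and HOXC6 were lost on leaving out any 1 of 10 cows (Pregnant_932, Pregnant_9246, Pregnant_3805, Pregnant_977, Pregnant_3807, Pregnant_9921, Pregnant_3803, Pregnant_1943, Pregnant_3957 or Pregnant_926), where 1 or 2 members passed, and were kept without Pregnant_3956 or Pregnant_9790. Without cow Pregnant_9790, 9 members passed, among them HOXB5, HOXB7 and HOXB8. Blocking on the slide gave 5 as a random and 2 as a fixed term, PBX3 in both. Of the endothelial markers, TIE1 (−0.88) and PECAM1 (−0.93) were also lower with large embryos, and their part in the result was not tested.

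**Figure D4:**
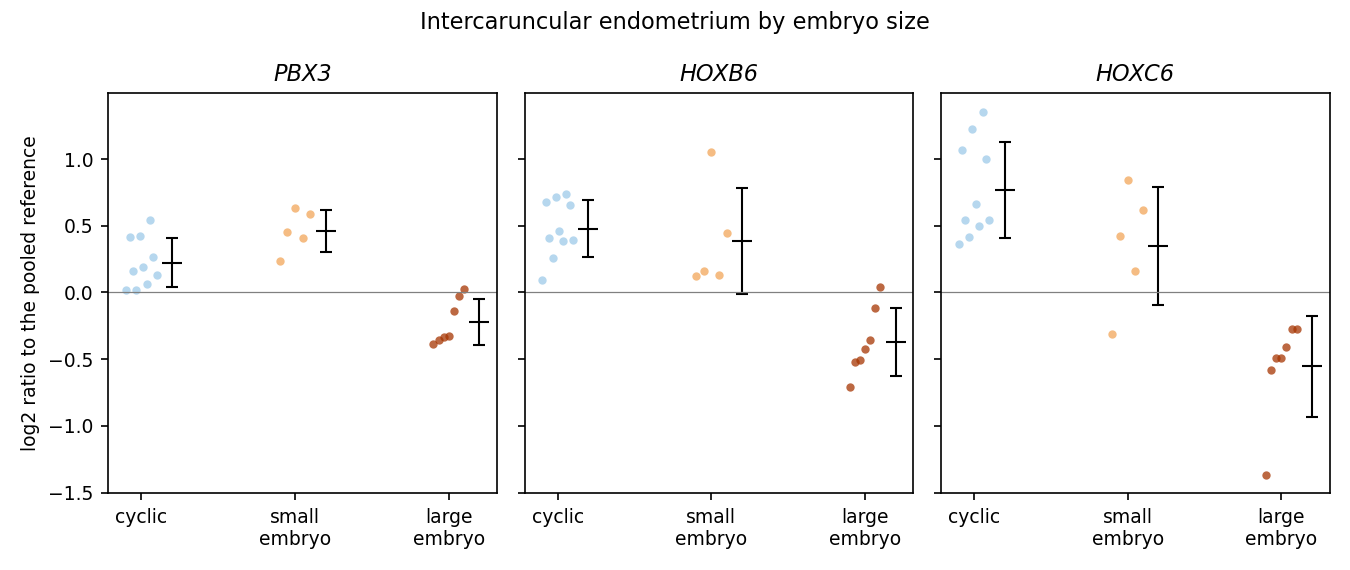
Log2 ratio to the pooled reference in intercaruncular endometrium of PBX3, HOXB6 and HOXC6, 1 point per cow, for 10 cyclic cows, 5 with small and 7 with large embryos, with the mean and SD. For PBX3 and HOXB6 every large-embryo cow lies below every small-embryo cow.

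In caruncular tissue 0 members passed for embryo size by limma (0% of all probes), and 7 had an unadjusted p under 0.05, against 6.93% of all probes. The members with the smallest p were HOXD4, higher by 0.63 with large embryos (adjusted p = 0.565, 6 of 7 above every small), and HOXA2, lower by 0.56 (adjusted p = 0.659, 3 of 7 below every small). The mean of the HOXB genes was −1.33 ± 0.63 (SD, n = 7) with large and −0.69 ± 0.55 (SD, n = 5) with small embryos, against −0.07 ± 0.58 (SD, n = 10) in cyclic cows. A difference in embryo size is not shown for these genes in caruncular tissue.

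No member was called for the fertility label. In caruncular tissue 0 members passed by limma (0% of all probes), with 9 at an unadjusted p under 0.05, against 13.7% of all probes. In intercaruncular tissue 0 passed as well (0.0464% of all probes, 0.00664% as higher and 0.0398% as lower in fertile cows), with 6 at an unadjusted p under 0.05, against 13.6% of all probes.

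SIX5 had the smallest p in caruncular tissue. It was lower by 0.54 in fertile cows (adjusted p = 0.279, 4 of 6 below every sub-fertile cow). In intercaruncular tissue the smallest p belonged to PRRX1, with a difference of 0.47 (adjusted p = 0.293), and HOXD8, with −0.33 (adjusted p = 0.313). Another probe of PRRX1 differed by only 0.02, so the probes of this gene disagree.

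Genes around the homeobox factors were counted from lists. Of 20 tested genes of retinoic acid synthesis, breakdown and response, a signal that switches HOX genes on along the body axis, 3 fell (4.25% of all probes) and 1 rose (5.87%) with pregnancy in caruncular tissue. RBP4 (0.82), CRABP1 (0.93) and CRABP2 (0.78), which carry retinoids, fell, and CYP26B1, which breaks retinoic acid down, rose by 1.80. In intercaruncular tissue CYP26A1, another enzyme of breakdown, was the 1 gene of the list that rose (4.05% of all probes), by 1.61. CYP26B1 also passed the interaction, at 1.48 (adjusted p = 0.0307, 8 of 12 above every cyclic cow). Between the tissues 3 genes of this list were higher in caruncular samples (8.46% of all probes), among them ALDH1A2 (0.90), and 2 lower (6.87%), among them ALDH1A1 (1.09), both enzymes of synthesis. With large embryos 1 gene, RXRA, was lower in intercaruncular tissue (2.03% of all probes), by 0.48.

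Polycomb and trithorax proteins keep HOX genes off or on through chromatin. Of 24 tested, 1 was called for pregnancy in caruncular tissue (10.1% of all probes), PHC3 with a rise of 0.70, and limma called 0 in intercaruncular tissue (7.35% of all probes). Between the tissues 3 were called (15.3% of all probes), all higher in caruncular samples, ASH1L by 1.10, MLL by 0.93 and PHC2 by 0.65. With large embryos 1 was called in intercaruncular tissue (3.51% of all probes), EZH1, lower by 0.40.

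Of 26 tested genes of uterine patterning and implantation, 4 rose (5.87% of all probes) and 3 fell (4.25%) with pregnancy in caruncular tissue, and 3 rose (4.05%) and 2 fell (3.3%) in intercaruncular tissue. IGFBP1, a secreted marker of the receptive ruminant uterus, rose by 1.24 and 1.49 and LIFR, a cytokine receptor, by 0.77 and 0.87, while EGR1 fell by 1.28 and 1.13. Between the tissues 5 were higher (8.46% of all probes) and 5 lower (6.87%) in caruncular samples, with WNT11 lower by 1.32 and IHH by 1.11. With large embryos 1 gene of the list, ITGB3, was higher in intercaruncular tissue (1.48% of all probes), by 0.80. Of 7 tested steroid receptors, ESR1, the main oestrogen receptor, fell by 0.96 and 0.86 with pregnancy, and ESR2 was lower by 1.10 in caruncular samples.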

How the data were processed

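Values were taken from the deposited scanner files. Per the file headers, Feature Extraction 9.5.3.1 gave raw intensity and background-subtracted, dye-normalized (LOWESS) signal for each spot, and the log10 ratio of Cy5 sample to Cy3 pool, with the same parameters on every array. The deposited log10 ratios were converted to a log2 ratio, spots and repeated arrays were averaged and the array median, 0 on every array, was subtracted. The deposited series matrix, in log2 units per the file headers and the authors' methods, served as an alternative source. Probes flagged well above background with a raw sample signal of at least 80, in at least 22 of 44 samples, were tested (15071 of 21475). A sample with repeated arrays had to meet both limits on each array. limma 3.58.1 (statmod 1.5.0, R 4.3.3) was fitted over all of them, with Benjamini-Hochberg adjustment over all of them and two-sided tests. Tables and plots were made with matplotlib 3.10.9, numpy 2.4.6 and pandas 2.3.3 under Python 3.11.15, and files in R were read with data.table (version 1.17.8). A call needed 1.5-fold and adjusted p under 0.05 for pregnancy and tissue, and adjusted p under 0.05 alone for the interaction, embryo size and fertility label.

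Tissues were paired by the cow number in the labels. The within-cow correlation of the tissues ran from 0.125 to 0.868 (median 0.619), above 0.1 in all 22 cows, against a median of −0.024 between cows.

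A gene with several probes was represented by the passing probe with the highest mean sample signal. By the rule set out in the design, named genes were all members called for pregnancy, the 8 largest rises and 8 largest falls called between the tissues, all members called by the interaction, embryo size or fertility label (otherwise the 2 smallest p), 12 genes known in the uterus, of which 9 are reported here, and the 3 most and 3 least detected, where ties left no gene to name. Some members are not reported by name here, though the counts and medians include them. The members and lists were chosen with earlier results of these data known. Alternatives changed the background correction (normexp with an offset of 50 and loess), centring, filter, source, probe, repeated arrays, test, slide, scan date, pairing, the other label and single cows. The cattle reference (ARS-UCD2.0) was used for names and neighbours alone, where 60 of 92 member probes matched.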

Additional observations from a re-analysis of the deposited data

Results flagged for a closer look

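In 6 of 50 groups of 4 to 10 samples, a single cow lay far from the others for a named gene. Chance flags about 1 in 20 groups when they are independent, which these were not, since the same cows recur across the HOXB genes. Among cyclic cows, cow Non-Pregnant_9786 was far below the rest for HOXB2 in intercaruncular tissue (−1.09, the others from 0.16 to 0.72), for HOXB3 in caruncular tissue (−1.39, the others from −0.23 to 0.85) and for HOXB7 in caruncular tissue (−2.09, the others from 0.14 to 0.93). In intercaruncular tissue of cyclic cows, cow Non-Pregnant_9778 was far above the rest for IRX3 (2.04, the others from −0.21 to 0.87) and cow Non-Pregnant_1940 for MSX1 (0.86, the others from −0.27 to 0.29). Among the cows with large embryos, cow Pregnant_9790 was far below the rest for HOXC6 in intercaruncular tissue (−1.37, the others from −0.58 to −0.27).

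For MSX1 and HOXB4 the difference with pregnancy was not the same in the 2 tissues by a test of that difference itself, at −0.84 and −0.74 on the log2 scale. Both calls were lost without a filter and without the cow as a replicate block, and that of HOXB4 also with the first array alone and without cow Non-Pregnant_9778.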

How the results depend on the processing

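Over the named genes, each only in the comparisons that named it, 597 values under alternatives were compared with those reported. Of these, 532 kept their direction and their side of the threshold, 63 kept their direction but no longer passed, 0 newly passed and 2 reversed. Named genes did newly pass in other comparisons, such as HOXB2 for pregnancy in intercaruncular tissue without cow Non-Pregnant_9786 and HOXB3 and HOXB7 for the interaction with normexp and loess. With the slide as a fixed block, 0 members were called for pregnancy in each tissue, in fits that rest on 2 cyclic arrays in caruncular and 1 in intercaruncular tissue and so carry little weight. With the slide as a fixed block HOXD8 also turned to 0.0209 for the fertility label in intercaruncular tissue, an alternative chosen after seeing the data. In the 2 cows with both tissues on 1 slide, IRX3 turned to 0.66. Without the cows scanned later, 7 members were called for pregnancy in intercaruncular tissue. The interaction count of 2 became 6 with normexp and loess, 0 without a filter (where more probes were tested), 1 with the first array alone, 8 without cow Non-Pregnant_9786 and 1 without cow Non-Pregnant_9778. Without the cow as a replicate block it was 0, and leaving out this block changed no other count by more than 1.5 times. The embryo size count of 3 in intercaruncular tissue became 1 without a filter, 5 with the slide as a random block and 1 to 9 on leaving out each pregnant cow in turn. The cause was not tested. Elsewhere the counts ran from 16 to 18 for pregnancy in caruncular tissue, from 15 to 22 between the tissues over all cows, from 7 to 13 in cyclic and from 20 to 26 in pregnant cows, and were 0 for embryo size in caruncular tissue and for the fertility label under every alternative run. Centring on tested probes, the processed signal in the filter and leaving out cow Non-Pregnant_9778 or Non-Pregnant_9786 were also chosen after seeing the data.

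Slides held mostly cows of 1 state and tissue, no dyes were exchanged and signal was lower over background in intercaruncular arrays (median 11.7 in cyclic and 15.4 in pregnant cows) than in caruncular arrays (21.9 and 22.9). With 12 pregnant cows, a difference by embryo size or fertility label that did not pass is not shown to be absent.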

Other observations

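Some homeobox genes stood on the array under older names and so outside the rule for members, and they were looked at after the other values were seen. ZEB1 (as TCF8) and ZEB2 (as ZFHX1B) encode repressors of epithelial genes. ZEB1 was higher by 1.07 in caruncular than in intercaruncular tissue in 21 of 22 cows (limma adjusted p = 1.4e-08), and ZEB2 by 0.59 in 22 cows, while a probe described as lying in an intronic region of ZEB2 was higher by 0.67 in 18 cows. TGIF1 (as TGIF) was higher by 0.98 in 20 cows on one probe and by 0.28 on another, which was under 1.5-fold. NKX3-2 (as BAPX1) differed by 0.04. None of these probes was called for pregnancy in either tissue by limma.

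Of 11 tested genes known to act with or against ZEB factors in the change from epithelial to mesenchymal cells, 2 were called for pregnancy in each tissue (10.1% of all probes in caruncular and 7.35% in intercaruncular). CDH1, the adhesion protein of epithelia, rose by 1.02 with pregnancy in caruncular and by 0.71 in intercaruncular tissue, and SNAI2 fell by 0.62 and 0.75. SNAI2 was higher by 1.14 in caruncular than in intercaruncular tissue. Of 35 tested homeobox genes outside the rule, 2 were called for pregnancy in caruncular tissue (10.1% of all probes), SEBOX and TLX3, which rose by 0.82 and 0.63. In intercaruncular tissue 2 were called (7.35% of all probes), SEBOX with a rise of 0.87 and ZHX1 with a fall of 0.86. Between the tissues 4 were called (15.3% of all probes). BARX1 was higher by 0.63 in caruncular samples, and BARX2, ALX1 and ZHX1 were lower by 0.71, 0.86 and 0.68.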
